A study of Mus musculus with 10 samples.

Results

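The 10 genes described here encode the antigen-presentation machinery of the major histocompatibility complex (MHC): H2-K1, H2-D1, B2m, Tap1 and Tapbp of the class I pathway, and Cd74, H2-Aa, H2-Ab1, H2-Eb1 and Ciita of the class II pathway. They were chosen by gene symbol, and all 10 were found among the 39769 symbols of the count table and passed the filter on low counts that left 15617 genes for testing. Class I molecules show peptides from inside the cell to CD8 T cells. Each is a heavy chain (H2-K1 or H2-D1 in the mouse) bound to beta-2-microglobulin (B2m), and is loaded in the endoplasmic reticulum with peptides that the transporter subunit Tap1 helps to import and that tapasin (Tapbp) helps to fit. Class II molecules show peptides from ingested material to CD4 T cells and are made mainly by dendritic cells, B cells and macrophages. In healthy brain parenchyma class II is scarce, and its main known sources there are macrophages at the brain's borders and activated microglia.

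RNA was measured by poly-A RNA-seq in 10 mouse libraries. The Ptch group (n = 4) is cerebellum of Ptch+/- mice labelled as controls, aged 4 months for libraries 1 and 2 and 2 months for libraries 3 and 4. The NKP group (n = 3) is labelled medulloblastoma, a cerebellar tumour, of genotype Nestin-Cre Kmt2dfl/+ Ptch+/-, each aged 4 months. The AKP group (n = 3) is labelled medulloblastoma of genotype AtohI-Cre Kmt2dfl/+ Ptch+/-, aged 2 months for libraries 1 and 2 and 4 months for library 3. The series' design text describes both as whole cerebella that carried tumour, so these samples may hold non-tumour tissue. All 3 groups thus carry Ptch+/-, and no group without it is analysed here. The Nestin promoter drives Cre in neural stem and progenitor cells and the Atoh1 promoter in granule neuron precursors, and macrophages, which arise outside the neural lineage, are not the intended site of Kmt2d loss. The study set tumour-bearing cerebella against Ptch cerebellum to ask how heterozygous loss of Kmt2d, a histone H3 lysine 4 methyltransferase, alters expression.

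Several libraries went against their labels. Kmt2d, the floxed gene, ran from 52.6 to 68.4 CPM (counts scaled to a common library size) in Ptch, from 33.2 to 58.0 CPM in NKP and from 34.3 to 43.6 CPM in AKP, so that 1 library labelled NKP (NKP 3) lay inside the Ptch range; a gene-level count checks the loss of a floxed exon only in part. In 4 of 10 libraries, Y-linked and Xist transcripts did not match the labelled sex (Ptch 1, Ptch 3, NKP 3 and AKP 3). NKP 2, labelled male, held both Xist (74.8 CPM) and Y-linked transcripts (68.4 CPM in sum). Mki67, a proliferation marker, was below 1 CPM in the medulloblastoma-labelled NKP 1, NKP 2 and AKP 1, where Atoh1, a marker of granule neuron precursors and of this tumour type, was at 0, 0.221 and 0 CPM. Mki67 was at 80.4 and 84.1 CPM in the cerebellum-labelled Ptch 2 and Ptch 1. By a chi-square of counts per degree of freedom over the tested genes, which is near 1 for sampling noise alone, the closest pairs were Ptch 3 and Ptch 4 (3.28), NKP 1 and AKP 1 (3.44), Ptch 1 and Ptch 2 (3.46) and Ptch 4 and NKP 3 (3.81), so 2 of these 4 pairs crossed the labels. The other pairs had 5.35 to 64.9. Total counts per library ran from 12300430 to 19348991. Groups below are the labelled ones, and values without the doubted libraries are given where they change a result.

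The genes of the MHC region itself lie on chromosome 17 of GRCm38.p6: H2-K1 at 33996012 to 34000619, Tapbp at 33919478 to 33929290, Tap1 at 34187556 to 34197225, H2-Ab1 at 34263227 to 34269418, H2-Aa at 34282744 to 34287823, H2-Eb1 at 34305867 to 34316674 and H2-D1 at 35263094 to 35267497. B2m lies on chromosome 2 (122147687 to 122153082) and Ciita on chromosome 16 (10480014 to 10531064). Class II promoters carry a conserved X and Y box module that CIITA, the product of Ciita, acts on, and the Y box is an inverted CCAAT element bound by NF-Y. RefSeq start sites on GRCm38.p6 were at hand for 7 of the 10 genes (not Cd74, H2-Ab1 or Ciita). CCAAT, searched on both strands (CCAAT or ATTGG) in the 120 bases before each start site, was found in 5 of these 7 (B2m, H2-K1, H2-D1, H2-Aa and H2-Eb1) and in 21.3% of 32851 annotated windows of that length. A match is only a match of letters. The 3 windows printed are those of 2 class II genes whose levels moved together over the libraries and of H2-K1, a class I gene. The level of H2-K1 moved less than theirs, by 1.325-fold from the lowest to the highest library. Each window is 5′ to 3′ on the gene's strand with the CCAAT letters of either strand in capitals. H2-Aa lies at chr17:34287824-34287943 (minus strand), H2-Eb1 at chr17:34305747-34305866 (plus strand) and H2-K1 at chr17:34000348-34000467 (minus strand). The windows of H2-Aa and H2-Eb1 lie just outside the gene spans given above. That of H2-K1 lies inside its gene's span, before an annotated start within it, and is not an equivalent of them.
H2-Aa: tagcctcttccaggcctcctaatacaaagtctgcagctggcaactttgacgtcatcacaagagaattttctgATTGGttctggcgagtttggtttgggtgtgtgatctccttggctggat
H2-Eb1: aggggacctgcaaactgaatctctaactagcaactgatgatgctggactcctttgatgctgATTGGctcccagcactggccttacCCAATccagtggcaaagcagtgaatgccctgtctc
H2-K1: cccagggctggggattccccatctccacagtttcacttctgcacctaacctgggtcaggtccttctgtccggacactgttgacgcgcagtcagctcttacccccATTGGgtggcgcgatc
The inverted form ATTGG begins 48 bases before the start of H2-Aa, 59 before that of H2-Eb1 and 16 before this start of H2-K1. Another annotated start of H2-K1, whose window is not printed, has ATTGG from 30 and CCAAT from 6 bases before it.

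**Figure D1:**
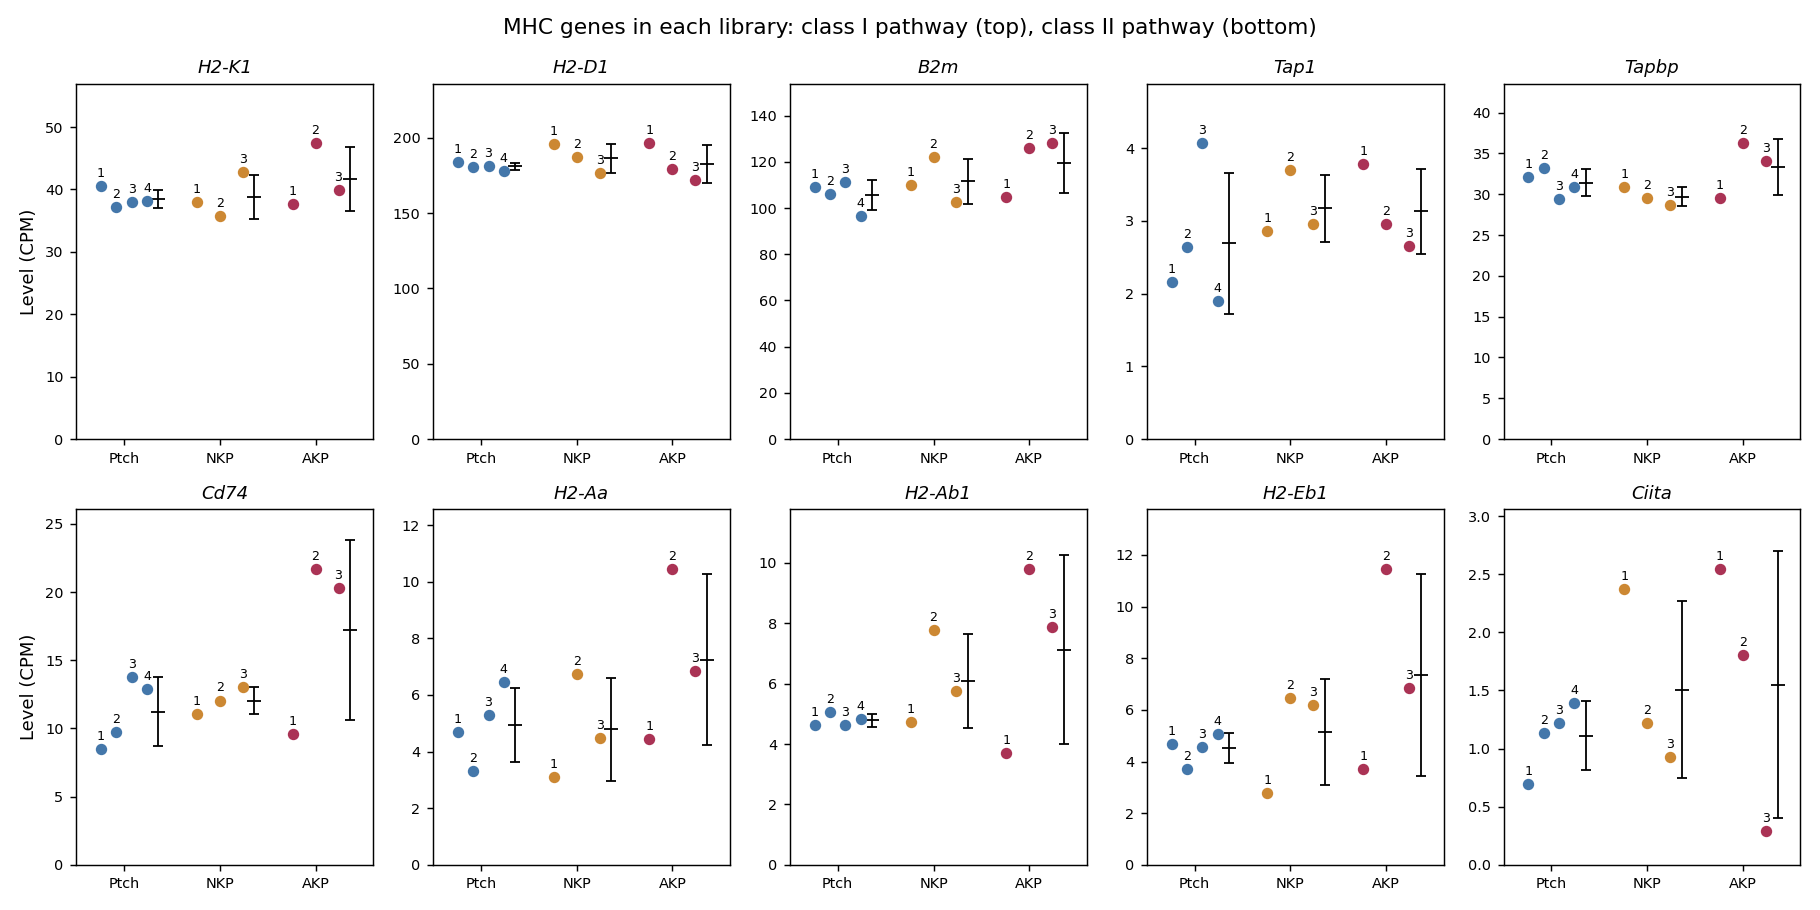
Level of each of the 10 MHC genes in CPM (linear axes from 0) by group, with each library as a numbered point (its replicate number) and the mean ± SD in black. H2-K1, H2-D1, B2m and Tapbp stay within narrow ranges, while Cd74, H2-Aa, H2-Ab1 and H2-Eb1 are highest in AKP 2, and none of them is high in AKP 1.

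The class I heavy chains and their light chain were abundant and nearly level across the libraries. H2-D1, a classical heavy chain, was at 184, 180.4, 182 and 178 CPM in Ptch 1 to 4, at 196, 187 and 177 CPM in NKP 1 to 3 and at 197, 179 and 172 CPM in AKP 1 to 3. The highest library exceeded the lowest by 1.14-fold, the smallest such ratio of the 10 genes, and the groups overlapped. H2-K1, the other classical heavy chain measured, was at 40.6, 37.2, 38.1 and 38.1 CPM in Ptch 1 to 4, at 37.9, 35.8 and 42.8 CPM in NKP 1 to 3 and at 37.7, 47.5 and 39.9 CPM in AKP 1 to 3. Only AKP 2 and NKP 3 lay above every Ptch library. B2m was at 109, 106, 111 and 96.5 CPM in Ptch 1 to 4, at 110.0, 122 and 102 CPM in NKP 1 to 3 and at 105, 126 and 128 CPM in AKP 1 to 3. It was above every Ptch library in NKP 2, AKP 2 and AKP 3.

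Transcripts of H2-K1 and H2-D1 are close copies: their longest coding transcripts (GENCODE vM21) were 88.2% identical over 1513 aligned positions. The division of reads between close copies is an estimate of the authors' software, so the level of either gene alone is uncertain. Their sum ran from 212 CPM in AKP 3 to 234 CPM in AKP 1.

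The peptide-loading genes differed in depth. Tapbp ran from 28.6 to 36.3 CPM over all 10 libraries, lowest in NKP 3 and highest in AKP 2, and overlapped between all groups. Tap1 was low, at 2.16, 2.64, 4.07 and 1.90 CPM in Ptch 1 to 4, 2.86, 3.70 and 2.96 CPM in NKP 1 to 3 and 3.78, 2.96 and 2.65 CPM in AKP 1 to 3. It rested on 28 to 80 counts a library, and both its highest and its lowest value came from Ptch libraries.

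Class II genes were scarcer than B2m and the class I heavy chains and more uneven between libraries. Cd74, the invariant chain that guides class II molecules to the peptide-loading compartment, was at 8.46, 9.76, 13.8 and 12.9 CPM in Ptch 1 to 4, at 11.04, 12.05 and 13.03 CPM in NKP 1 to 3 and at 9.62, 21.7 and 20.3 CPM in AKP 1 to 3. Both AKP 2 and AKP 3 stood above every other library, whereas AKP 1 lay within the Ptch range. H2-Aa, the alpha chain of the A molecule, was at 4.69, 3.31, 5.29 and 6.47 CPM in Ptch 1 to 4, at 3.11, 6.74 and 4.49 CPM in NKP 1 to 3 and at 4.44, 10.5 and 6.85 CPM in AKP 1 to 3. It too was highest in AKP 2, followed by AKP 3 and NKP 2.

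H2-Ab1, the beta chain that pairs with H2-Aa, was at 4.62, 5.06, 4.63 and 4.82 CPM in Ptch 1 to 4, at 4.74, 7.79 and 5.75 CPM in NKP 1 to 3 and at 3.70, 9.81 and 7.88 CPM in AKP 1 to 3. The Ptch libraries were tightly grouped, with AKP 2, AKP 3, NKP 2 and NKP 3 above all of them and AKP 1 below. H2-Eb1, the beta chain of the E molecule, was at 4.69, 3.72, 4.58 and 5.07 CPM in Ptch 1 to 4, at 2.78, 6.47 and 6.19 CPM in NKP 1 to 3 and at 3.70, 11.5 and 6.85 CPM in AKP 1 to 3. Both NKP 1 and AKP 1 were below every Ptch library, and the other 4 medulloblastoma-labelled libraries were above them. Its alpha chain partner H2-Ea, looked up after the values were seen, had 0 counts in all 10 libraries, which allows a level of up to 0.153 to 0.246 CPM depending on the library (3 counts each, counting error only).

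Ciita, the coactivator that switches class II genes on, did not follow the class II chains. It was at 0.693, 1.14, 1.22 and 1.40 CPM in Ptch 1 to 4, at 2.37, 1.22 and 0.931 CPM in NKP 1 to 3 and at 2.55, 1.80 and 0.295 CPM in AKP 1 to 3. It was thus highest in AKP 1 and NKP 1, where H2-Eb1 was below every Ptch library, and lowest in AKP 3, which was high in Cd74. Ciita rested on 4 to 31 counts a library, and its span overlaps Dexi, a gene at up to 60.9 CPM, whose reads in shared sequence cannot be told apart in a library that does not mark strand.

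Per kilobase of the longest coding transcript, levels in Ptch were 123 CPM for B2m, 86.1 for H2-D1, 23.8 for H2-K1, 10.9 for Tapbp, 7.96 for Cd74, 4.38 for H2-Aa, 3.95 for H2-Ab1, 2.71 for H2-Eb1, 0.911 for Tap1 and 0.185 for Ciita. The 3 class II chains lay close together on this scale, and their ranges over the libraries overlapped (2.75 to 9.27 for H2-Aa, 3.05 to 8.10 for H2-Ab1 and 1.67 to 6.87 for H2-Eb1). Those of B2m, H2-D1 and H2-K1 did not overlap.

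Over the 10 libraries the class II chains varied together, given here as Pearson r of log2(CPM + 1) without a test, since the libraries share groups and composition. The coefficient was 0.91 for H2-Aa with H2-Eb1, 0.87 for H2-Ab1 with H2-Eb1 and 0.76 for H2-Aa with H2-Ab1, and Cd74 had 0.77, 0.79 and 0.78 with H2-Aa, H2-Ab1 and H2-Eb1. Ciita had -0.18 to -0.32 with these genes. With Cd74 and the class II chains, class I genes were mixed. B2m had 0.565 (H2-Aa) to 0.80 (H2-Ab1), the latter above the 0.76 of H2-Aa with H2-Ab1. H2-K1 had 0.51 (H2-Ab1) to 0.71 (H2-Eb1) and Tapbp 0.44 to 0.57. Tap1 had -0.01 to 0.07, and H2-D1 had -0.47 to -0.60. H2-D1 had 0.78 with Ciita. High coefficients were thus not limited to pairs of class II genes. H2-K1 and H2-D1 had -0.40 with each other. Among all other tested genes the closest to Cd74 were Otp (0.97), Mrap2 (0.97), Adra2a (0.96), Irx2 (0.96) and H2-T-ps (0.96). For B2m they were Lonp2 (0.96), Dcaf13, Dynlrb2, Ptgdr and Mettl23, and for H2-K1 Gm29595 (0.93), 5031439G07Rik, Prmt9, Pgf and Nxph4. Otp and Irx2 are transcription factor genes of neurons and neural patterning, not of immune cells. These were picked as the largest coefficients among all tested genes, so their size is no finding.

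AKP against Ptch, the comparison for the AtohI-Cre line, had higher mean levels of all 5 class II genes, none of which passed the test. Cd74 averaged 17.2 ± 6.61 CPM in AKP (SD, n = 3) against 11.2 ± 2.52 CPM in Ptch (SD, n = 4), a log2 fold change of 0.61 (SE 0.251, 95% interval 0.07 to 1.16, edgeR adjusted p = 0.152). H2-Eb1 averaged 7.34 ± 3.91 and 4.52 ± 0.571 CPM, with a log2 fold change of 0.71 (interval -0.06 to 1.47, adjusted p = 0.236 by edgeR). H2-Ab1 had 0.58 (interval -0.03 to 1.19, adjusted p = 0.220 by edgeR). H2-Aa had 0.56 (-0.15 to 1.26) and Ciita 0.46 (-0.73 to 1.64). All 5 class II genes were above 0, but in no gene did the groups separate, because AKP 1 fell among or below the Ptch libraries in Cd74 and the 3 chains.

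Differences in class I genes in AKP against Ptch were small and their intervals narrow. B2m averaged 119.6 ± 13.01 CPM in AKP (SD, n = 3) against 106 ± 6.49 CPM in Ptch (SD, n = 4), with a log2 fold change of 0.18 (SE 0.0969, interval -0.03 to 0.39, adjusted p = 0.274 by edgeR). H2-K1 had 0.12 (interval -0.10 to 0.34), Tapbp 0.09 (-0.13 to 0.30) and H2-D1 0.01 (-0.16 to 0.19). The intervals of these 4 genes thus end at a 1.31-fold rise or less, and the lower ends lie at 0.897-fold or more. Tap1, at its lower depth, had 0.21 (-0.42 to 0.83).

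Of the 10 genes, 0 were called in AKP against Ptch at an adjusted p below 0.05, where 5.68% of all 15617 tested genes were called. At an unadjusted p below 0.05 there was 1 of 10 (Cd74), beside 25.1% of all tested genes, and DESeq2 called 0 of 10, beside 12.4%. All 10 log2 fold changes were above 0, with a median of 0.33 beside -0.02 over all tested genes. In 0 of the 10 genes were the groups without overlap in CPM, beside 24.8% of all tested genes.

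The result rested on AKP 1. Without it Cd74 had a log2 fold change of 0.90 (edgeR adjusted p = 0.0139) and H2-Ab1 0.89 (adjusted p = 0.0280), so 2 of the 10 genes were called, both higher, beside 9.08% of 16061 tested genes. Without NKP 1, NKP 2 and AKP 1, the medulloblastoma-labelled libraries almost without Mki67, 3 of 10 were called higher (Cd74, H2-Ab1 and H2-Eb1), beside 10.8% of 16558 tested genes. The value falls where AKP 2 is left out instead: Cd74 was then 0.41 and H2-Eb1 0.23, and 0.00624% of all tested genes were called. Without the libraries Ptch 1 and Ptch 2 Cd74 was 0.38, and without the 4 libraries against their sex label it was 0.48. In either fit 0% of all tested genes were called, so the count of 0 MHC genes there says nothing about them.

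**Figure D2:**
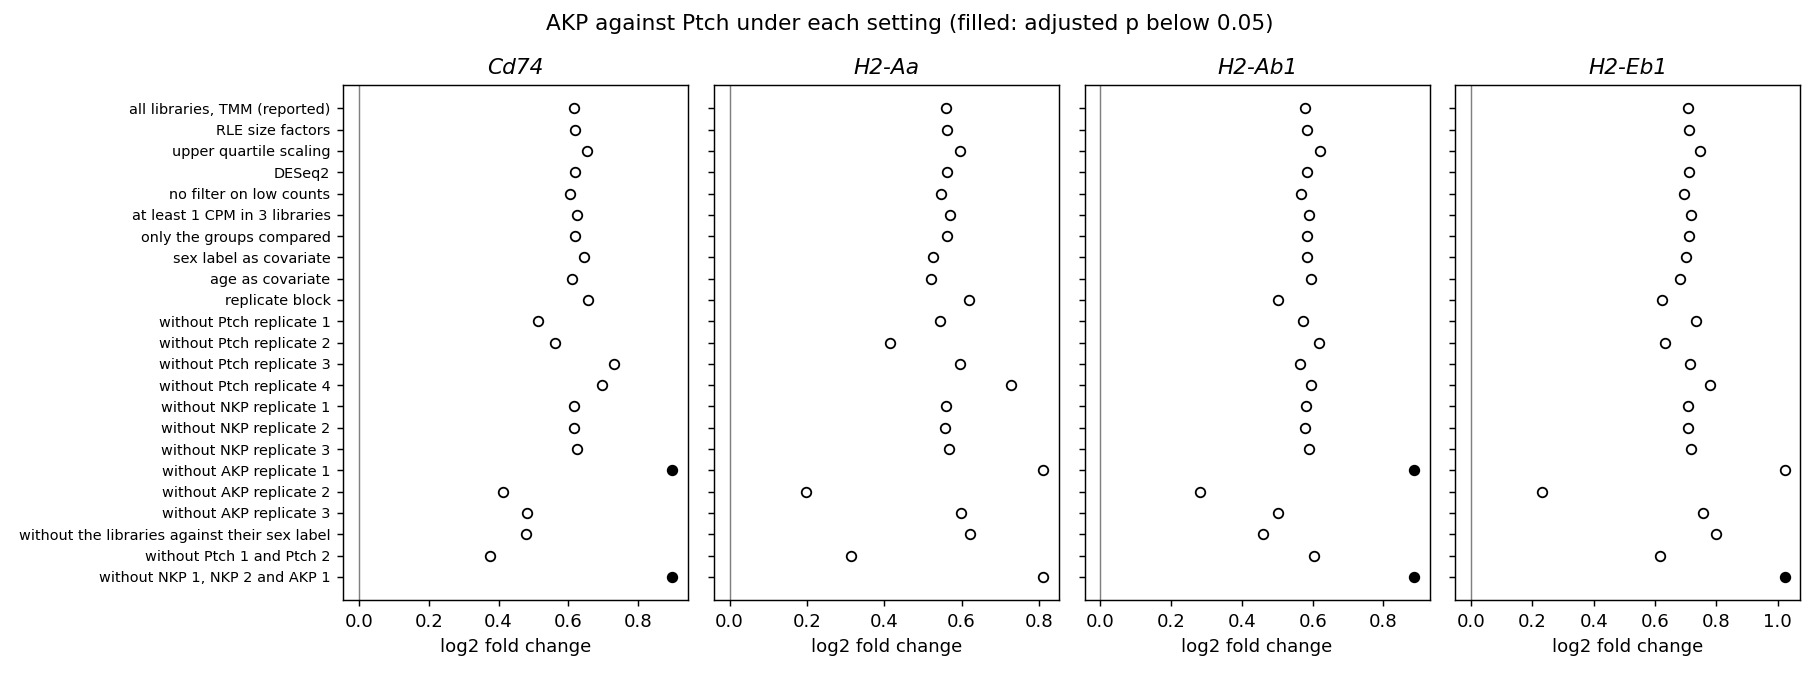
Log2 fold change (x axis) of 4 class II genes in AKP against Ptch as reported and under 22 other settings (rows), with filled points where the adjusted p is below 0.05. All values lie above 0, and filled points appear only where AKP 1 is left out, alone or with NKP 1 and NKP 2.

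Differences of class II genes were smaller in NKP against Ptch, the comparison for the Nestin-Cre line; whether they differ from those in AKP is tested by AKP against NKP. Cd74 averaged 12.04 ± 0.996 CPM in NKP (SD, n = 3) against 11.2 ± 2.52 CPM in Ptch (SD, n = 4), with a log2 fold change of 0.10 (SE 0.254, interval -0.45 to 0.65, edgeR adjusted p = 0.871). H2-Ab1 averaged 6.09 ± 1.55 and 4.78 ± 0.208 CPM (0.35, interval -0.25 to 0.96, adjusted p = 0.533 by edgeR). H2-Eb1 had 0.20 (-0.57 to 0.98), Ciita 0.39 (-0.78 to 1.57) and H2-Aa -0.03 (-0.75 to 0.68). In class I, H2-K1 had 0.01 (-0.21 to 0.23), H2-D1 0.04 (-0.13 to 0.21), B2m 0.08 (-0.13 to 0.28), Tapbp -0.08 (-0.29 to 0.13) and Tap1 0.23 (-0.39 to 0.85).

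In NKP against Ptch 0 of the 10 genes were called by edgeR, beside 0% of all tested genes. At an unadjusted p below 0.05 there were 0 of 10, beside 17% of all tested genes, and DESeq2 called 0 of 10, beside 2.6%. Members above 0 numbered 8, with a median log2 fold change of 0.09 beside 0.01 for all tested genes. In 0 genes did the groups separate, beside 15.9% of all tested genes. NKP 1 and NKP 2 were unlike each other in class II, at 10.6 and 21.0 CPM summed over the 3 chains, with NKP 3 at 16.4 CPM between them and Ptch at 12.1 to 16.4 CPM.

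AKP against NKP sets the 2 Cre lines side by side. Cd74 had a log2 fold change of 0.52 (SE 0.271, interval -0.07 to 1.10, edgeR adjusted p = 0.347), H2-Aa 0.59 (-0.17 to 1.35), H2-Eb1 0.50 (-0.32 to 1.32), H2-Ab1 0.22 (-0.42 to 0.87) and Ciita 0.06 (-1.19 to 1.32). Class I genes ran from -0.03 (H2-D1) to 0.17 (Tapbp). By edgeR 0 of 10 genes were called, beside 0.0064% of all tested genes. At an unadjusted p below 0.05 there were 0 of 10, beside 16.9% of all tested genes, and DESeq2 called 0 of 10, beside 1.47%. The median of the members was 0.13 beside -0.01 over all tested genes, and 0 genes had groups without overlap, beside 16.2% of all tested genes. Without AKP 1, Cd74 had 0.80 (edgeR adjusted p = 0.0284) and was the 1 member called, beside 8.49% of all tested genes. Of the members 8 were above 0. The comparisons of AKP and of NKP with Ptch share their Ptch libraries, so their values are not independent of each other.

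**Figure D3:**
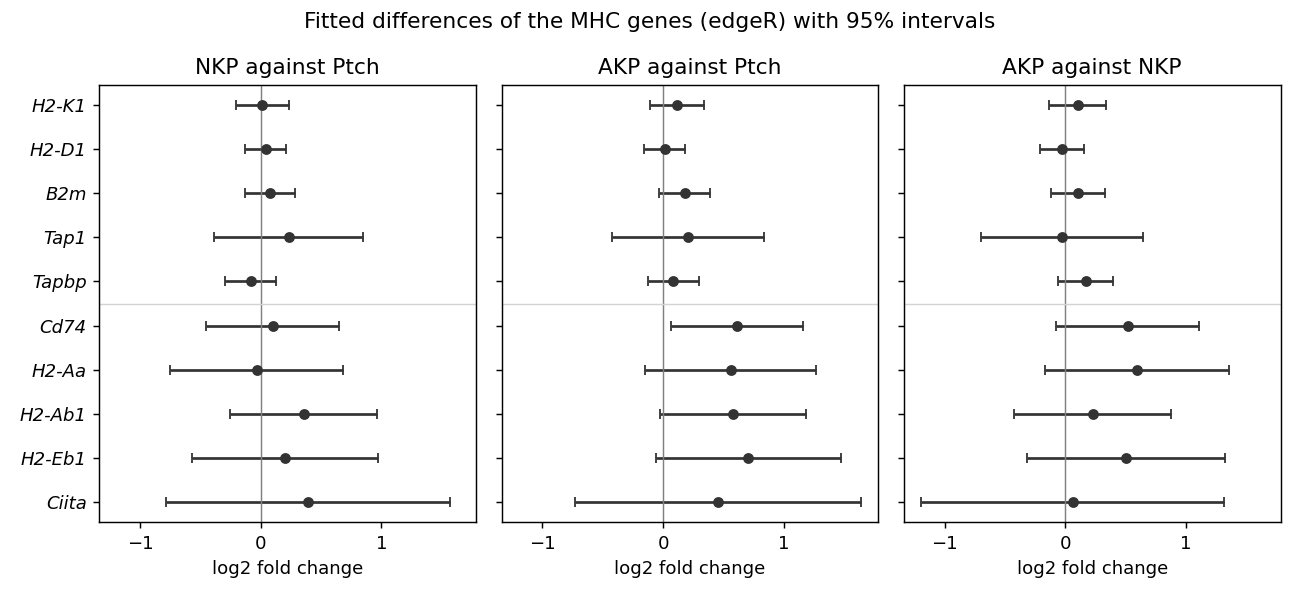
Log2 fold change (x axis) of each of the 10 genes in the 3 comparisons from 1 edgeR fit of all 10 libraries, with 95% intervals, class I pathway genes above the grey line and class II genes below it. Every interval crosses 0 except that of Cd74 in AKP against Ptch, and intervals are widest for Ciita.

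Markers of macrophage-lineage cells were high in the same 2 libraries as class II. The 16 microglia markers summed to 609.8 and 497 CPM in AKP 2 and AKP 3, to 343 to 465 CPM in Ptch and to 300 to 312 CPM in NKP 1 to 3 and AKP 1. In AKP 2, 10 of 16 markers were above every Ptch library and in AKP 3 9 of 16, against 0 or 1 in the other 4 medulloblastoma-labelled libraries. The share of all tested genes above every Ptch library was not computed, for this count or those below. In a list of another cell type, 6 of 6 oligodendrocyte markers were above every Ptch library in each AKP library. These counts are therefore a description and no result about macrophage-lineage cells. The defining marker P2ry12 did not follow the sum, at 5.77 and 10.7 CPM in AKP 2 and AKP 3 and 7.16 to 13.2 CPM in Ptch. The 8 border macrophage markers summed to 34.3 and 31.1 CPM in AKP 2 and AKP 3, 31.9 CPM in NKP 2 and 20.2 to 27.9 CPM in the other 7 libraries. Counted by marker, 5 of 8 were above every Ptch library in each of AKP 2, AKP 3, NKP 2 and NKP 1, although NKP 1 had the lowest sum of class II chains. NKP 2 was also the third highest library for the summed class II chains (21.0 CPM, after 31.7 in AKP 2 and 21.6 in AKP 3), and had the highest sum of choroid plexus markers, 4040 CPM beside 1724 to 2967 CPM in the others.

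Within Ptch, Cd74 did not follow the microglia sum. Ptch 1 and Ptch 2 had the higher microglia sums (465 and 451 CPM) and the lower Cd74 levels (8.46 and 9.76 CPM). H2-Aa was lower in them too (4.69 and 3.31 CPM, beside 5.29 and 6.47 CPM in Ptch 3 and Ptch 4). The other class II chains were not: H2-Ab1 was highest in Ptch 2 (5.06 CPM). H2-Eb1 was higher in Ptch 1 (4.69 CPM) than in Ptch 3 (4.58 CPM). Ptch 1 and Ptch 2 also differed from Ptch 3 and Ptch 4 in labelled age and in Mki67. Lymphocyte markers were low, with Ighm and Ncr1 at 0 counts in every library, Cd3e at 0 to 3 and Cd8a at 0 or 1. The 6 B cell markers summed to 2.47 to 2.95 CPM in AKP 1 to 3, above the 1.14 to 1.92 CPM of Ptch, and the 6 monocyte and neutrophil markers to 4.20 to 5.70 CPM in AKP beside 1.03 to 3.67 CPM in Ptch. Both sums were thus above every Ptch library in AKP 1 as well, where Cd74 and the 3 class II chains were not. The monocyte and neutrophil sum was highest in NKP 1 (7.85 CPM), the library with the lowest sum of class II chains. The sum of 6 red blood cell markers was highest in NKP 1 too, at 2486 CPM. It was 1245 and 782.5 CPM in NKP 2 and NKP 3, 1742 to 2233 CPM in AKP and 711 to 816 CPM in Ptch. The part of residual blood in the monocyte and neutrophil sum was not tested. The 9 T and NK cell markers summed to 0.164 to 2.38 CPM over all libraries, highest in Ptch 2. Of the dendritic cell markers, Xcr1 and Clec9a had at most 3 counts, and Flt3 and Zbtb46, which made up most of that list's sum, were lowest in AKP 2. Itgax, at 0 to 25 counts, had 0.433 CPM in AKP 2, beside 0.380 to 1.385 CPM in Ptch and 0 to 0.11 CPM in NKP. Whether Flt3 and Zbtb46 came from dendritic cells was not tested, so that sum is not read as a measure of them. The part of these cell types in the class II levels was not tested. In bulk tissue, more cells of a type and more RNA per cell cannot be told apart.

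**Figure D4:**
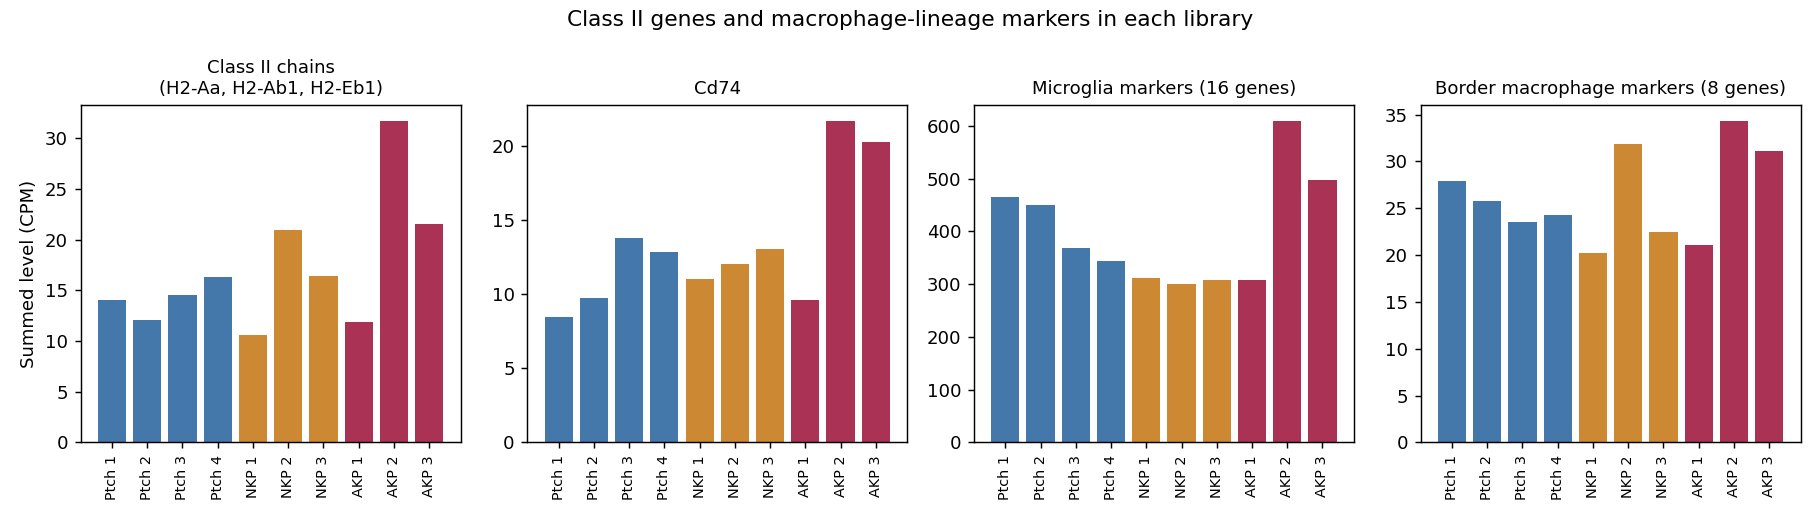
Summed level in CPM (y axes from 0) in each of the 10 libraries for the 3 class II chains, Cd74, 16 microglia markers and 8 border macrophage markers, in blue for Ptch, orange for NKP and red for AKP. AKP 2 and AKP 3 have the tallest bars for class II chains, Cd74 and microglia markers, and NKP 2 joins them for class II chains and border macrophage markers.

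Other genes of antigen presentation, taken from fixed lists, had 0 calls in every comparison. Of all tested genes 0% were called in NKP against Ptch, 5.68% in AKP against Ptch and 0.0064% in AKP against NKP. The count of 0 in NKP against Ptch and in AKP against NKP thus says nothing about these genes. Of 11 tested genes that supply and load class I peptides, 9 were above 0 in AKP against Ptch (median log2 fold change 0.32, beside -0.02 for all tested genes), and 6 of 11 had an unadjusted p below 0.05, beside 25.1% of all tested genes. Those with the smallest p were Psmb10, a catalytic subunit of the immunoproteasome (0.60, edgeR adjusted p = 0.0539), Calr, the chaperone calreticulin (0.35, adjusted p = 0.0627 by edgeR), and Pdia3, its partner disulfide isomerase (0.32, adjusted p = 0.0656 by edgeR). Psmb8, another immunoproteasome subunit, was at 3.29 CPM in AKP 1, 7.65 CPM in AKP 2, 6.49 CPM in AKP 3 and 3.41 to 4.24 CPM in Ptch (0.56, edgeR adjusted p = 0.192). Psmb8 thus repeated the order of Cd74 among the AKP libraries. Psmb9 had 0.37 and Tap2, the partner of Tap1 in the peptide transporter, -0.06.

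In AKP against NKP the smallest p in that list belonged to Psme1 and Psme2, the subunits of the PA28 proteasome activator (0.66 and 0.43, edgeR adjusted p = 0.228 and 0.236). Psme1 was at 52.0 and 44.3 CPM in AKP 2 and AKP 3 but 27.7 CPM in AKP 1, and at 26.0 to 26.6 CPM in NKP, so these groups did not overlap. In NKP against Ptch 8 of 11 were above 0 (median 0.13), and the smallest p belonged to Psmb10 (0.38, edgeR adjusted p = 0.277) and Psme1 (-0.38, adjusted p = 0.305 by edgeR).

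Further class II genes and the enzymes that prepare class II peptides had 8 of 9 tested members above 0 in AKP against Ptch (median 0.29) and 3 of 9 in NKP against Ptch (median -0.05). The proteases Lgmn (0.29, edgeR adjusted p = 0.0532) and Ctsl (0.23, adjusted p = 0.130 by edgeR) led, followed by the costimulatory ligand Cd86 (0.74, adjusted p = 0.250 by edgeR). H2-DMa, a chain of the peptide exchange factor, was at 7.64, 6.78 and 6.85 CPM in AKP 1 to 3 and 4.34 to 7.85 CPM in Ptch (0.34). Cathepsin S (Ctss), which trims the invariant chain, was at 37.1 CPM in AKP 1, 71.0 CPM in AKP 2 and 66.6 CPM in AKP 3, 38.5 to 42.4 CPM in NKP and 44.7 to 57.8 CPM in Ptch. Like Cd74, Ctss was high in AKP 2 and AKP 3 and low in AKP 1 (log2 fold change 0.20 against Ptch, edgeR adjusted p = 0.551). H2-DMb1 had the smallest p in NKP against Ptch (0.54, adjusted p = 0.293 by edgeR) and H2-Ob in AKP against NKP (1.67, adjusted p = 0.231 by edgeR, at no more than 1.08 CPM in any library).

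The 14 tested non-classical and other class I heavy chains had medians near 0 (-0.03 in NKP against Ptch, 0.02 in AKP against Ptch and 0.12 in AKP against NKP). H2-T23, which encodes the Qa-1 heavy chain, was at 18.5, 21.3 and 18.8 CPM in AKP 1 to 3 and 13.4 to 16.7 CPM in Ptch (0.37, edgeR adjusted p = 0.0878), with no overlap between the groups. Cd1d1, a lipid-presenting relative, had the smallest p in NKP against Ptch (-1.78, adjusted p = 0.248 by edgeR), at 0.736 to 1.48 CPM in NKP, 5.85 and 5.17 CPM in Ptch 1 and Ptch 2 and 1.63 and 1.40 CPM in Ptch 3 and Ptch 4. H2-Q6 (-1.28 in AKP against Ptch) is uncertain at no more than 1.45 CPM and with close copies.

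Of 7 tested regulators of MHC genes, 2 were above 0 in AKP against Ptch (median -0.12) and 1 in NKP against Ptch (median -0.07). Nlrc5, the class I counterpart of Ciita, had 0 to 14 counts a library and was not tested. Rfx5, which binds the X box, was at 16.1 to 16.9 CPM in AKP and 18.9 to 23.1 CPM in Ptch (-0.36, edgeR adjusted p = 0.101). Nfya, an NF-Y subunit, had -0.49 in both comparisons with Ptch (adjusted p = 0.218 in NKP and 0.0774 in AKP by edgeR). Its Ptch values were 33.7 and 31.8 CPM in Ptch 1 and Ptch 2 and 24.3 and 20.8 CPM in Ptch 3 and Ptch 4, and Ptch 4 lay within the 18.5 to 21.3 CPM of the medulloblastoma-labelled libraries. Creb1, a factor that binds the X box region, had -0.22 and -0.24 in NKP and AKP against Ptch.

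Genes of interferon signalling, the main known inducer of MHC genes, also had 0 calls. The shares of all tested genes called were 0% in NKP against Ptch, 5.68% in AKP against Ptch and 0.0064% in AKP against NKP. Of 25 tested, 18 were above 0 in NKP against Ptch (median 0.09) and 16 in AKP against Ptch (median 0.11). Irf1, a transcription factor that acts on MHC promoters, had -0.16 and 0.18 in these comparisons. Isg15, an interferon-induced ubiquitin-like protein, was at 4.44, 6.13 and 5.60 CPM in AKP 1 to 3 and 2.43 to 3.46 CPM in Ptch (0.80, edgeR adjusted p = 0.0532), without overlap. Ifi27, another interferon target, had 0.44 and the receptor chain Ifnar1 -0.26 (edgeR adjusted p = 0.0827 and 0.0884). In NKP against Ptch the smallest p belonged to Irf8, a factor of myeloid cells (-0.78, adjusted p = 0.218 by edgeR).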

How the data were processed

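TruSeq RNA v2 libraries of poly-A RNA, a kit that keeps no strand information, were made from 10 samples, per the labels' protocols. Per the submitters' processing notes Trim Galore, STAR, RSEM and GRCm38 were used; for their versions, and for the annotation, no source used here gives any. Values deposited by the authors are whole numbers per gene symbol, treated as rounded RSEM expected counts. Totals were 12300430 to 19348991 per library.

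Of 39769 symbols, edgeR's filterByExpr left 15617. CPM are on the TMM scale. Tests are edgeR 4.0.16 (R 4.3.3) quasi-likelihood F tests from 1 robust fit to the 10 libraries by group alone, with Benjamini-Hochberg adjustment over every tested gene and a threshold of 0.05. SE is the absolute log2 fold change divided by the square root of F, and the 95% intervals built on it are not adjusted for multiple testing. The procedure was tested on simulated data. DESeq2 1.42.0 and other settings are in the closing section. The labels do not state whether replicates were different animals, and p-values therefore describe variation among libraries that may be technical.

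The genes, the lists of related genes and cell type markers, and the rule for named genes (every member, the 3 smallest p of each pathway list, 8 fixed genes, and the 5 genes most correlated with each of Cd74, H2-K1 and B2m) were chosen with earlier results of these data known. Other named list members were chosen after their values were seen. Some list members are not reported here. Upstream sequences are RefSeq's, on GRCm38.p6.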

Additional observations from a re-analysis of the deposited data

How the results depend on the processing

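The count of MHC genes called was recomputed under 22 other settings for each comparison. In NKP against Ptch it was 0 in all 22. Leaving out each library in turn gave 0 to 2 in AKP against Ptch and 0 to 1 in AKP against NKP, the higher value each time without AKP 1. Without NKP 1, NKP 2 and AKP 1, an alternative chosen after seeing the data, like that without Ptch 1 and Ptch 2, it was 3 in AKP against Ptch; NKP 3 alone then stands for NKP and is assumed to vary like the other groups. The cause was not tested. RLE or upper quartile scaling, DESeq2, no filter or one of 1 CPM in 3 libraries, fits of only 2 groups, sex label or age as a covariate, leaving out the libraries against their sex label, and leaving out Ptch 1 and Ptch 2 gave 0 in each comparison. The setting without NKP 3 is the same fit as leaving out that library.

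With the replicate number as a block the count of MHC genes called was 0 in each comparison, while that over all genes in AKP against Ptch went from 887 to 0. Same-numbered libraries deviated together (correlation above 0.1) in 3 of 9 pairs, with r from -0.335 to 0.341. A library correlated best with its own number in 4 of 18 cases. The numbers thus showed no pairing in this check. It cannot exclude a pairing, since the libraries also differed in ways that crossed the labels.

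No MHC gene's log2 fold change took the opposite sign while past the threshold. Uncalled values changed sign most often for Ciita in AKP against NKP (-0.93 to 0.56, opposite in 7 of 22) and H2-Aa in NKP against Ptch (-0.36 to 0.19, 7 of 22). Over all genes, calls in NKP against Ptch, AKP against Ptch and AKP against NKP numbered 0, 887 and 1 by edgeR and 406, 1940 and 230 by DESeq2. Age as a covariate gave 933 in NKP against Ptch. In AKP against Ptch the count was 0 without AKP 3, 1 without Ptch 1, Ptch 2 or AKP 2 in turn, 183 without Ptch 4, 231 with sex label as a covariate and 321 without Ptch 3, so the share of 5.68% in the report is itself unstable. Ciita (4 to 31 counts a library) and Tap1 (28 to 80 counts) rest on few counts, and a rise of 1.5-fold lay inside the 95% intervals of both in every comparison, as it did for Cd74, H2-Aa, H2-Ab1 and H2-Eb1.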

Other observations

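The ratio of H2-K1 to H2-D1 within a library ran from 0.192 to 0.265. It was 0.194, 0.192 and 0.192 in NKP 1, NKP 2 and AKP 1, the medulloblastoma-labelled libraries almost without Mki67, from 0.206 to 0.221 in Ptch, and 0.242, 0.265 and 0.232 in NKP 3, AKP 2 and AKP 3. The ratio thus fell on either side of Ptch in libraries that carry the same label. Both genes share reads by estimation, and no comparison by label rests on the ratio.

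The ratio of Cd74 to the summed class II chains, by contrast, had no such order: it was 0.574 in NKP 2 and 1.04 in NKP 1, with 0.604 to 0.951 in Ptch and 0.684 to 0.939 in AKP.

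Endothelial cells carry class I at a high level, and the sum of their 10 markers was higher in the medulloblastoma-labelled libraries: it was 238 to 300 CPM in Ptch, 336 to 382 CPM in NKP and 320 to 357 CPM in AKP. For the counts by marker that follow, the share of all tested genes above every Ptch library was not computed. By marker, 4 of 10 were above every Ptch library in AKP 2 and in AKP 3, 7 in AKP 1 and in NKP 3, 8 in NKP 1 and 10 in NKP 2. The only 1 called was Ly6c1, an endothelial gene of the Ly6 family, which rose in AKP against Ptch (edgeR adjusted p = 0.0209). It was at 34.6 to 38.7 CPM in Ptch and 58.1 to 59.8 CPM in AKP. In that comparison 5.68% of all tested genes were called, so 1 of 10 markers is no result about endothelial genes. Over the same libraries the summed H2-K1 and H2-D1 level was 216 to 225 CPM in Ptch, 219.5 to 234 CPM in NKP and 212 to 234 CPM in AKP, and overlapped between all groups.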
